A study of Arabidopsis thaliana with 18 samples.

Results

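Described here are 7 probe sets that the array files describe as heat shock factors or proteins like them, out of 24 so described and of 22810 on the array. They were chosen by their description and on their signal across the 9 groups, so differences between treatments in these 7 are given as a description with no test. Of the 7, 3 are named in their descriptions. HSF4 (246214_at, locus AT4G36990) is the class B factor also called HSFB1, and HSF1 (245379_at, locus AT4G17750) and HSF3 (246450_at, locus AT5G16820) are A1-type class A factors also called HSFA1A and HSFA1B. The other 4 are not paired with a gene by the annotation used here and are called by their probe set. Their descriptions read as a putative factor (266841_at), a factor like one of the tomato Lycopersicon peruvianum (251166_at), a putative factor resembling HSF30 of that tomato (252081_at) and a factor like HSF29 of soybean (254878_at). No class or role is given to these 4, and no sequence of any of the 7 is printed.

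Heat shock factors are the transcription factors that switch on chaperone genes when cells are heated. They bind heat shock elements in the promoters of those genes, and plants carry a large family of them that is sorted into classes A, B and C. Class A factors activate transcription, and in Arabidopsis the A1-type members are made in unstressed plants and start the response. Other class A members are themselves made after stress and prolong it, whereas several class B members act as repressors in Arabidopsis.

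RNA came from whole Arabidopsis thaliana seedlings of the accession Col-0, 7 days old, and was measured on Affymetrix oligonucleotide arrays. The lines were HSFA6b-RD, which carries a dominant-negative form of the heat shock factor HSFA6b (RD), HSFA6b-OE, which overexpresses that factor (OE), and wild type Col-0 (WT). The labels do not give the promoter of either transgene or the number of lines, and the level of HSFA6b itself is not analysed here. Seedlings of each line were kept at 37 °C for 1 h (heat shock), in 150 mM NaCl for 6 h, or at 22 °C (control). All had grown at 22 °C on MS salts at a strength of 0.5 with 1% sucrose. Each of the 9 groups had 2 biological replicates, so 18 arrays were compared. The controls carried no further treatment, and the same controls served both stresses. Heat shock lasted 1 h and NaCl 6 h, so stress and duration cannot be told apart where the 2 are compared.

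Values are MAS5 signals, on a linear scale and scaled by array, with a call of Present, Marginal or Absent for each probe set. Each array gave a Present call to 63.32% to 73.59% of its probe sets, and the 2 arrays of a group correlated at r = 0.916 to 0.973 over the tested probe sets. The signal ratio of the 3′ to the 5′ actin probe sets, which rises as RNA degrades, was 2.79 to 8.29 on heat shock arrays and 2.23 to 3.63 on NaCl arrays, against 2.32 to 4.08 on control arrays. The value of 8.29 was that of OE heat 1, and the other 5 heat shock arrays had 2.79 to 4.35. The same ratio for GAPDH was 1.134 on OE heat 1 and 0.658 to 1.205 over all 18 arrays. The part of these ratios in the results was not tested. Of 10 marker genes of leaf, root and seed, 3 could be matched, all of root: EXPA7, SCR and SHR. EXPA7 and SHR were called Present on 6 and 3 of 6 heat shock arrays and on 0 and 0 of 6 NaCl arrays, against 5 and 6 of 6 control arrays. SCR was Present on 5 of 6 heat shock arrays, 6 of 6 NaCl arrays and 6 of 6 control arrays, and its signal was 27.2 to 300.5 units after heat shock and 162.4 to 191 after NaCl, against 558.3 to 738.7 in controls. In whole seedlings, fewer cells of a type and less RNA per cell cannot be told apart, and the part of these shifts in the results was not tested. Arrays WT heat 1, WT NaCl 1 and OE NaCl 1 carry a different series code in their names than the other 15, and what that code marks is not stated.

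HSF4 had 14595 and 13110.5 units of signal on the RD heat arrays, 17100.2 and 18951 on the OE heat arrays and 17433 and 19913 on the WT heat arrays. After NaCl it had 834.1 and 819.3 in RD, 1752 and 2633 in OE, and 1099 and 1513 in WT. In controls it had 108.5 and 144.0 in RD, 328.6 and 449.0 in OE, and 181.0 and 299.7 in WT. The 6 heat shock arrays lay above all NaCl arrays, and these above all controls. Heat shock minus control was 6.79 in RD, 5.55 in OE and 6.32 in WT on the log2 scale, with a standard error (SE) of 0.29 each. NaCl minus control was 2.73, 2.48 and 2.47 in RD, OE and WT, so the step at 37 °C was the larger in each line.

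**Figure D1:**
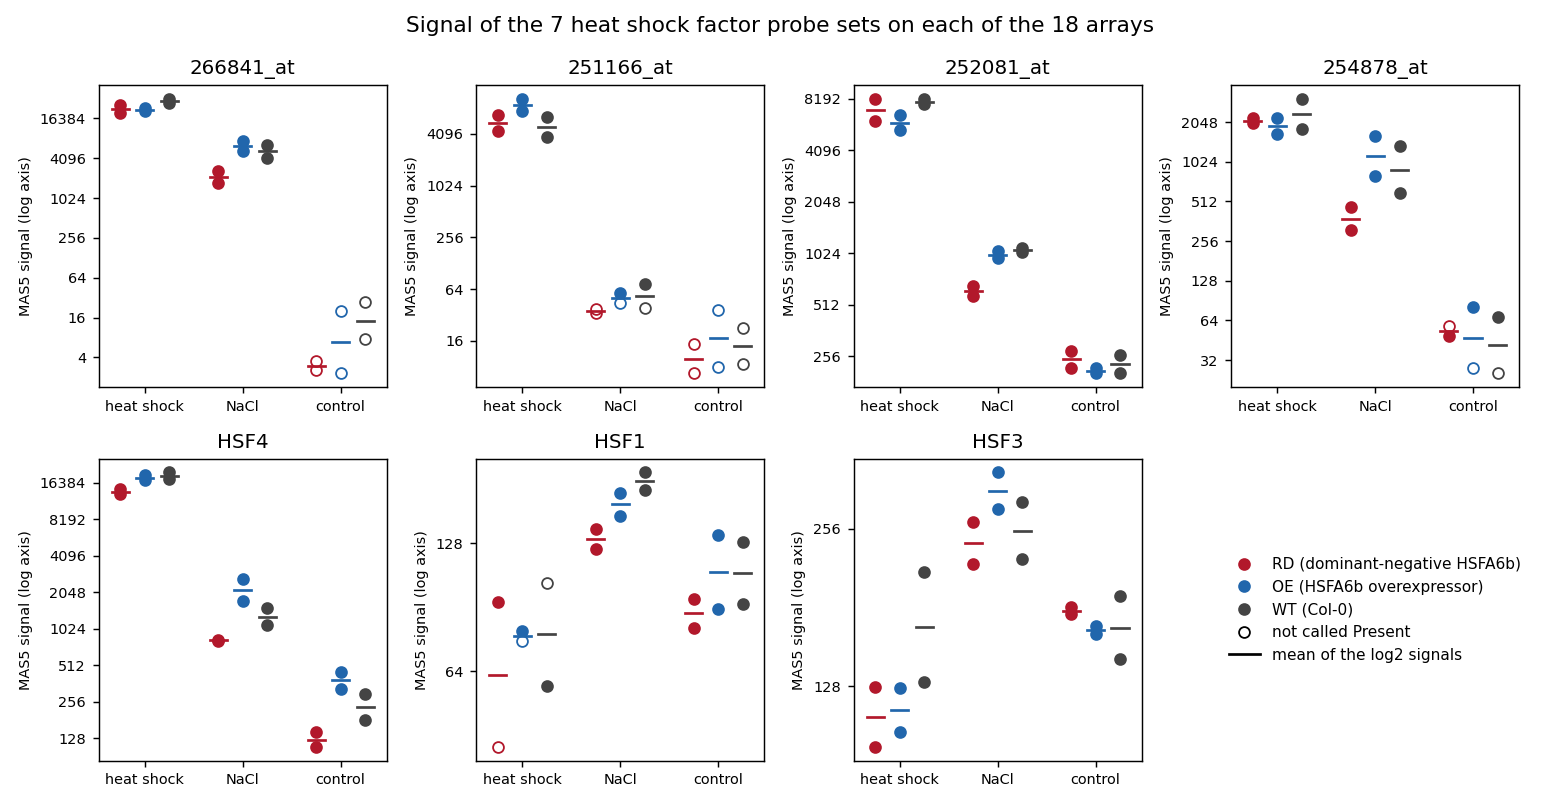
MAS5 signal (log axis) of each of the 7 probe sets on the 18 arrays, grouped by heat shock, NaCl and control and, within each, by RD, OE and WT. Points are arrays, open where the probe set was not called Present, and lines are means of the log2 signals. For the 5 strongly responding probe sets the 6 heat shock arrays lie above the 6 NaCl arrays, and for HSF1 and HSF3 below them.

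Probe set 266841_at had 25777 and 19766 units on the RD heat arrays, 21049.9 and 23483 on the OE heat arrays and 28065 and 32630.1 on the WT heat arrays. After NaCl it had 1756 and 2656.5 in RD, 5344 and 7447 in OE, and 4133 and 6538.5 in WT. In controls its signal was 2.3 to 27.2 and was called Absent on all 6 arrays. This probe set thus had no Present call in any control and a Present call on every array under both stresses. Since a control level was not measurable, its folds are bounds, computed on each control array against its own signal or, where higher, the smallest Present signal there. It was at least 2650-fold higher after heat shock than in control in RD, at least 1576-fold in OE and at least 2051-fold in WT. After NaCl it was at least 254-fold higher in RD, at least 447-fold in OE and at least 352-fold in WT. These bounds hold for that rule on dim signals: with every signal raised to a floor of 16, the log2 difference was 10.46 in RD, 10.28 in OE and 10.50 in WT for heat shock and 7.08, 8.47 and 7.96 for NaCl.

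Probe set 251166_at was called Absent on all 6 control arrays as well, at 6.7 to 36.8 units. After heat shock it had 6793 and 4435 units in RD, 10531 and 7557 in OE and 3804 and 6507 in WT, all Present. After NaCl it had only 33.6 and 38.1 in RD, 43.8 and 57.7 in OE and 38.5 and 73.3 in WT. Of these NaCl arrays, 2 were called Present, 1 each in OE and WT. By the rule used for 266841_at, its heat shock signal was at least 555-fold above control in RD, at least 465-fold in OE and at least 357-fold in WT. These bounds too hold only for that rule on dim signals. With a floor of 16 the log2 difference was 8.42 in RD, 8.52 in OE and 8.03 in WT. No fold of NaCl over control is given, since 1 of 2 NaCl arrays was Present in OE and in WT and neither in RD. Heat shock was at least 153-fold above NaCl in RD, and exceeded it by 7.47 in OE and 6.55 in WT on the log2 scale (SE 0.65). For 266841_at that log2 difference was 3.39 in RD, 1.82 in OE and 2.54 in WT (SE 0.74).

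Probe set 252081_at was Present on all 18 arrays. It had 8206 and 6059 units after heat shock in RD, 6636 and 5364 in OE, and 8229 and 7607.5 in WT. The NaCl arrays had 657.7 and 580.1 in RD, 956.4 and 1058 in OE, and 1094 and 1048.5 in WT. All 6 control arrays lay between 203.3 and 276.5, so neither stress overlapped with control. Heat shock minus control was 4.84 in RD, 4.82 in OE and 5.10 in WT (SE 0.22). NaCl minus control was 1.32 in RD, 2.25 in OE and 2.21 in WT (SE 0.22).

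Probe set 254878_at had 2202 and 2014 units after heat shock in RD, 1663 and 2183 in OE, and 1824 and 3085 in WT. The NaCl arrays had 311.3 and 462.0 in RD, 801.1 and 1606 in OE, and 594.0 and 1347 in WT. Its 6 controls lay between 25.4 and 80.3, and 3 of them were called Present, 1 in each line. Heat shock lay above NaCl on every array of a line, but the step between them was small in OE. Heat shock minus control was 5.31 in RD, 5.34 in OE and 5.83 in WT, and NaCl minus control was 2.84, 4.59 and 4.42 in RD, OE and WT (SE 0.56). Heat shock minus NaCl was 2.47 in RD, 0.75 in OE and 1.41 in WT.

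HSF1, one of the A1-type factors, ranged from 42.4 to 187.7 units over the 18 arrays. It had 42.4 and 93.0 units after heat shock in RD, 79.4 and 75.3 in OE, and 59.1 and 103.2 in WT, with 3 of these 6 arrays called Present. Its NaCl arrays had 123.9 and 137.9 in RD, 168.3 and 148.6 in OE, and 187.7 and 170.6 in WT. In controls it had 81.0 and 94.6 in RD, 133.8 and 89.6 in OE, and 128.7 and 91.9 in WT. All 6 NaCl arrays lay above all 6 heat shock arrays, while against the controls of their line the heat shock arrays overlapped in RD and WT and lay lower in OE. Within each line both NaCl arrays lay above both controls. Heat shock minus control was -0.48 in RD, -0.50 in OE and -0.48 in WT, and NaCl minus control was 0.58, 0.53 and 0.72 in RD, OE and WT (SE 0.38).

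HSF3, the other A1-type factor, was Present on all 18 arrays. It had 97.9 and 127.5 units after heat shock in RD, 127.1 and 104.5 in OE, and 211.7 and 130.3 in WT. After NaCl it had 219.0 and 263.8 in RD, 278.7 and 327.6 in OE, and 223.4 and 287.3 in WT. Its control arrays lay between 144.2 and 190.2, below every NaCl array. The heat shock arrays lay below the controls of their line in RD and OE and overlapped with them in WT. Heat shock minus control was -0.68 in RD, -0.51 in OE and 0.00 in WT, and NaCl minus control was 0.43, 0.88 and 0.61 in RD, OE and WT (SE 0.28).

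The small heat shock differences of HSF1 and HSF3 depend on the scaling between arrays. The median log2 difference of all 17379 tested probe sets was -0.27 to -0.29 for heat shock as deposited and -0.10 to -0.12 after quantile normalization. Quantile normalization gave -0.14, -0.13 and -0.08 for HSF1 and -0.34, -0.12 and 0.39 for HSF3 in RD, OE and WT. HSF1 after heat shock thus lay within 0.38, the SE above, of control in that setting, and the sign for HSF3 was not shared by the 3 lines. For NaCl, where the median shift was -0.13 to -0.22 as deposited and -0.06 to -0.07 after quantile normalization, the difference from control was positive in all 3 lines for both factors with either scaling.

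Counted by size, 5 of the 7 probe sets exceeded a log2 difference of 1 for heat shock minus control in each line. Of all tested probe sets 7.26% did so in RD, 7.95% in OE and 8.47% in WT. For NaCl minus control it was the same number in each line, against 12.6%, 12.5% and 12.4% of all tested in RD, OE and WT. For heat shock minus NaCl it was 5 in RD, 4 in OE and 5 in WT, against 16.9%, 14.6% and 13.5% of all tested, and 254878_at in OE made the difference. The members were chosen on these values and the contrasts within a line share arrays, so nothing is read from these counts.

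**Figure D2:**
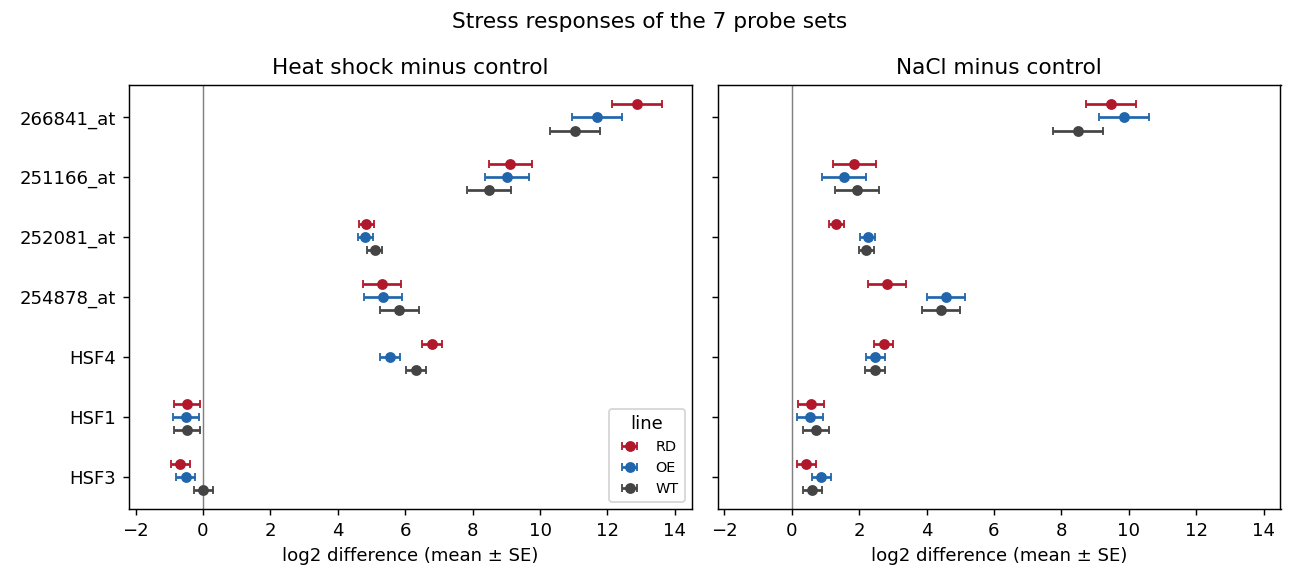
Log2 difference (mean ± SE from the fit over 18 arrays) of each of the 7 probe sets for heat shock minus control and NaCl minus control, in RD, OE and WT. The controls of 266841_at and 251166_at were Absent on every array, so their differences rest on unmeasurable control signals. After heat shock HSF1 and HSF3 lie between -0.68 and 0.00. After NaCl the points of 252081_at, 254878_at and HSF3 are lower in RD than in OE and WT, and that of HSF4 is higher. By limma's adjusted p, 0 of 7 passed for the NaCl response between lines.

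The members' pattern over the 18 arrays was compared with that of 9613 tested probe sets named for a single gene, as a description, since all arrays share the 3 treatments. Probe set 266841_at was most like HSP90.1 (Pearson r = 0.989), a cytosolic chaperone, followed by AT2G20560 (0.983) and AT1G54050 (0.981). For 252081_at the closest were AT5G10695 (0.991), AT3G12050 (0.991) and AT4G15420 (0.99). HSF4 was most like AT2G19310 (0.989), the chaperone gene AT5G37670 (0.988) and HSA32 (0.986), which is needed for long-term acquired thermotolerance in Arabidopsis.

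For 251166_at, the probe set with little NaCl signal, the closest were AT5G11680 (0.984), DER1 (0.98), a derlin of the endoplasmic reticulum, and SK18 (0.978). For 254878_at they were AT1G55530 (0.98), AT1G13195 (0.979) and Hop3 (0.978), a co-chaperone that links HSP70 and HSP90. The A1-type factors had lower values: HSF1 was closest to UBP25 (0.89), a ubiquitin-specific protease, AT4G30630 (0.885) and AT5G44910 (0.883), and HSF3 to AT1G18390 (0.945), AT4G34540 (0.941) and AT1G15890 (0.936). Among the members, 252081_at and HSF4 were the most alike (0.973), HSF1 and HSF3 reached 0.701 with each other, and 251166_at and HSF3 were the least alike (-0.564).

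Whether the 2 HSFA6b lines differed from each other and from wild type was tested under each treatment, with limma over all 18 arrays and Benjamini-Hochberg adjustment over the 17379 tested probe sets. The signals of all 9 groups entered the choice of the members, so the p-values of these tests are not independent of it and describe the fit. RD minus OE was the pair in which members passed. HSF4 averaged 126 ± 25.1 units in RD controls and 389 ± 85.1 in OE controls (SD, n = 2 each), a log2 difference of -1.62 ± 0.29 (SE; 95% interval -2.24 to -1.0; limma adjusted p = 0.0406). After NaCl it averaged 827 ± 10.5 units in RD and 2193 ± 623 in OE, a difference of -1.38 ± 0.29 (interval -2.0 to -0.76; limma adjusted p = 0.0445). Both RD arrays lay below both OE arrays in each case. After heat shock HSF4 averaged 13853 ± 1050 units in RD and 18026 ± 1309 in OE, and the difference of -0.38 (interval -1.0 to 0.24; limma adjusted p = 0.875) did not pass.

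These 2 calls lay near the threshold. With 1 array left out, the HSF4 call in controls was lost in 10 of 18 cases, namely without any 1 array of OE control, RD control, OE heat, RD heat or RD NaCl (limma adjusted p up to 0.378). The call after NaCl was lost in 12 of 18 cases, without any 1 of the 12 OE and RD arrays (limma adjusted p up to 0.28). Over all 26 alternatives the limma adjusted p ran from 0.00363 to 0.378 in controls and from 0.00393 to 0.28 after NaCl, and the difference was negative in every one of them. Of all tested probe sets, 0.219% passed for RD minus OE in controls, 0.846% after heat shock and 0.76% after NaCl. Of the 7 members, 1, 0 and 1 passed, and 1, 0 and 3 had an unadjusted p under 0.05, as did 5.22%, 8.5% and 8.75% of all tested.

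No other member passed for RD minus OE. After NaCl the nearest were 252081_at, at -0.70 (interval -1.18 to -0.23; limma adjusted p = 0.252), and 254878_at, at -1.58 (interval -2.79 to -0.37; limma adjusted p = 0.354). Probe set 266841_at was at -1.55 (interval -3.14 to 0.05; limma adjusted p = 0.59), which passed with a signal floor of 16 (limma adjusted p = 0.0335; 0.0335 to 0.838 over the alternatives). HSF1 was at -0.27 (interval -1.10 to 0.55) and HSF3 at -0.33 (interval -0.94 to 0.28), so the error allows differences as large as these bounds. For 251166_at the difference was -0.49 (limma unadjusted p = 0.46), and -0.84 to -0.25 over the alternatives. Neither RD array and only 1 of 2 OE arrays was called Present, so no fold is given.

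The NaCl arrays nevertheless had a shared order. Both RD NaCl arrays lay below both OE NaCl arrays for all 7 members, which 22% of all tested probe sets did. Both lay below both WT NaCl arrays for 6 of 7, HSF3 being the exception, which 15.6% of all tested did. For 251166_at these orders rest on dim signals. Its RD NaCl arrays had 33.6 (Absent) and 38.1 (Marginal), against 43.8 on OE NaCl 1 and 38.5 on WT NaCl 1, each Absent. The median log2 difference of the members after NaCl was -0.70 for RD minus OE and -0.64 for RD minus WT, beside -0.07 and -0.02 over all tested. Under heat shock RD lay below OE without overlap for 2 of 7 (22.2% of all tested) and below WT for 3 of 7 (21.9%). In controls the counts were 1 of 7 against OE (20% of all tested) and 2 of 7 against WT (16.7%). Probe sets measured on 1 array are not independent, and no test was made of these counts. The order is that of the deposited signals. With quantile normalization, RD minus OE after NaCl ran from -1.745 for 266841_at to -0.08 for HSF1, with HSF3 at -0.17. The median of all tested was then 0.025. WT NaCl 1 and OE NaCl 1 carry the other series code and both RD NaCl arrays do not, so line and series partly coincide here.

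**Figure D3:**
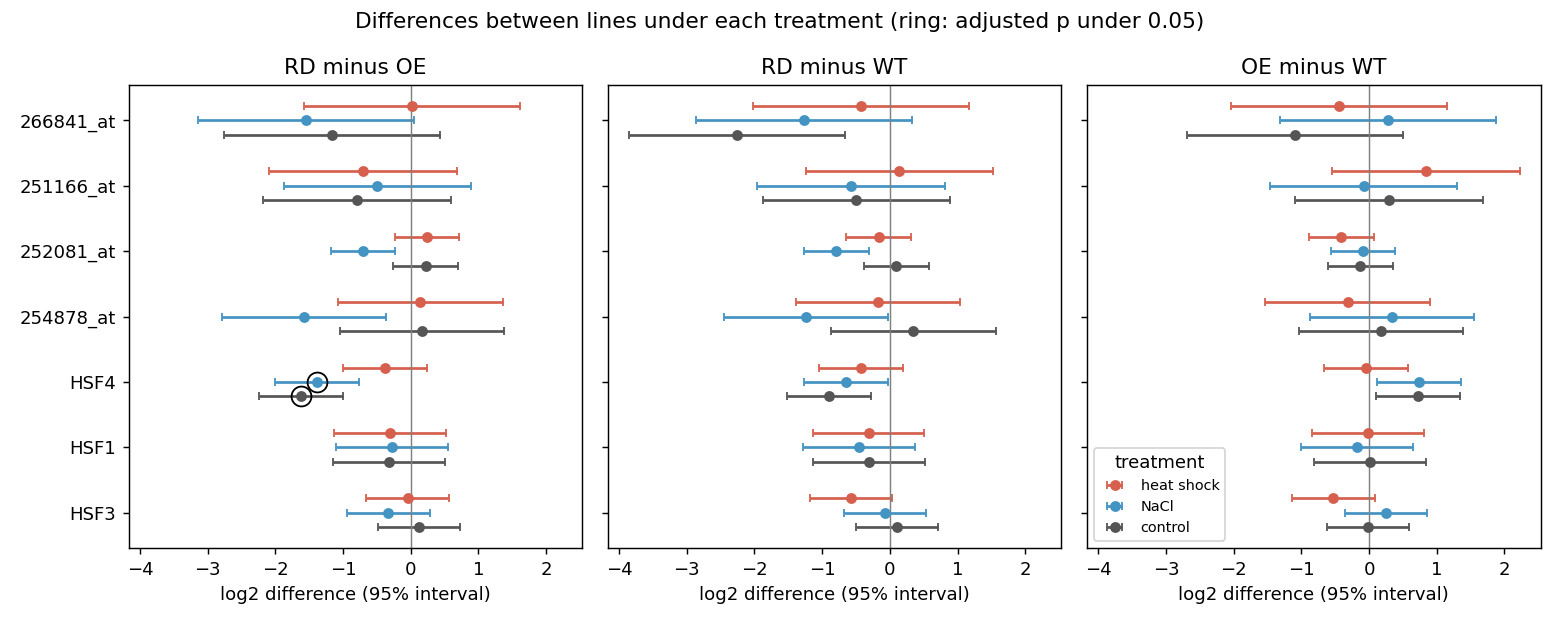
Log2 differences with 95% intervals between lines for each of the 7 probe sets, as RD minus OE, RD minus WT and OE minus WT, under heat shock, NaCl and control. Rings mark limma adjusted p under 0.05. Control points of 266841_at and 251166_at rest on signals not called Present, and neither RD NaCl array called 251166_at Present. HSF4 carries the only rings, in RD minus OE after NaCl and in controls. All 7 NaCl points of RD minus OE and of RD minus WT lie below 0. The HSF3 point in RD minus WT is at -0.08, and was at -0.004 with quantile normalization.

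For RD minus WT, 0 of 7 members passed under any treatment by limma's adjusted p. At an unadjusted p under 0.05 there were 2 in controls (266841_at, which was Absent on those arrays, and HSF4), 0 after heat shock and 3 after NaCl (252081_at, 254878_at and HSF4), beside 3.69%, 13.2% and 6.12% of all tested. HSF4 differed by -0.90 (interval -1.52 to -0.28; limma adjusted p = 0.845) in controls, -0.43 (interval -1.05 to 0.19) after heat shock and -0.64 (interval -1.26 to -0.02) after NaCl. Probe set 252081_at differed by -0.79 after NaCl (interval -1.27 to -0.32; limma adjusted p = 0.259). Of all tested probe sets 0.046% passed in controls, 0.207% after heat shock and 0.437% after NaCl.

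For OE minus WT, 0 of 7 members passed under any treatment by limma's adjusted p, and 0.0173% of all tested probe sets did in controls, 0.115% after heat shock and 0% after NaCl. At an unadjusted p under 0.05 HSF4 was the 1 member in controls and the 1 after NaCl, and none was after heat shock. Of all tested, 0.915% had such a p in controls, 1.7% after NaCl and 13.5% after heat shock. HSF4 was at 0.72 (interval 0.10 to 1.34) in controls, -0.05 (interval -0.67 to 0.57) after heat shock and 0.74 (interval 0.12 to 1.36) after NaCl (limma adjusted p of 0.962 to 0.99999). In controls and after NaCl its arrays were ordered OE above WT above RD without overlap. Of all tested probe sets, OE lay above WT without overlap for 14.8% in controls and 12.3% after NaCl. RD lay below WT for 16.7% and 15.6%. The share with the whole order was not computed.

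The size of the stress response was compared between lines in the same fit, as a difference of differences. By limma's adjusted p, 0 of 7 members passed in each of the 6 contrasts. For the heat shock response, 0.00575% of all tested probe sets passed in RD minus OE, 0.00575% in RD minus WT and 0.0115% in OE minus WT. For the NaCl response it was 0.023%, 0.0173% and 0% in the same order. At an unadjusted p under 0.05 there were 1 for the heat shock response in RD minus OE, 2 for the NaCl response in RD minus OE, 1 in RD minus WT, and 0 in the other 3 contrasts. Of all tested it was 3.53% in RD minus OE, 6.36% in RD minus WT and 6.16% in OE minus WT for the heat shock response, and 4.35%, 2.87% and 1.1% for the NaCl response. The heat shock response of HSF4 was at 1.24 in RD minus OE (interval 0.36 to 2.12; limma adjusted p = 0.99996). The NaCl response of 252081_at was at -0.93 in RD minus OE (interval -1.60 to -0.25) and -0.89 in RD minus WT (interval -1.56 to -0.21). That of 254878_at was at -1.75 in RD minus OE (interval -3.47 to -0.04). The intervals of the other members included 0.

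The array files describe 17 other probe sets as heat shock factors, of which 12 were tested. They are what choosing the 7 left over, so the counts and p-values given for them are a description. The annotation assigns 4 of the 17 to a locus outside the family, 1 of them tested (AT1G12800). The description of 262551_at, also tested, reads as a putative factor similar to polyubiquitin 2. AT1G12800 and 262551_at are kept in the counts. Not tested were 5: 255746_at, 254591_at, 245653_at and 245107_at had no Present call on any array, and 248244_at had 3. In heat shock against control, 4 of 12 rose in RD, 5 in OE and 5 in WT, and 0 fell in any line, against 5.41%, 6.44% and 6.7% of all tested that rose and 9.41%, 12.3% and 13.3% that fell. The largest was 250910_at, whose description likens it to HSF1, with a difference of 4.07 in RD, 4.72 in OE and 5.23 in WT (limma adjusted p = 0.000248, 4.95e-05 and 1.86e-05). In WT it was followed by 247509_at, described as heat shock factor 6 (3.15), 258603_at (2.61), 260701_at (2.07) and 254592_at (1.21). The last of these was at 0.71 in RD (limma adjusted p = 0.0625).

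In NaCl against control, 5 of 12 rose and 1 fell in RD, 6 rose and 1 fell in OE, and 7 rose and 1 fell in WT. Of all tested, 12% rose and 19.5% fell in RD, 11.5% and 15% in OE, and 12% and 18.3% in WT. The 7 that rose in WT were 249117_at (4.37), 258603_at (2.77), 247509_at (2.38), 258139_at (2.35), 250910_at (2.33), 254592_at (1.03) and 248936_at (0.99). Probe set 258139_at, likened to HSF1 in its description, thus rose after NaCl, while after heat shock it was at 0.32 in WT (limma adjusted p = 0.714). Heat shock minus NaCl was at -2.09 in RD, -2.02 in OE and -2.02 in WT (limma adjusted p = 0.00857, 0.0104 and 0.0126). Its signal was 164.8 to 240.0 on the heat shock arrays and 467.3 to 1559 on the NaCl arrays, against 119.1 to 231.3 on the control arrays. The probe set that fell was 245800_at, by 2.34 on the log2 scale in WT. The 249117_at call in WT, where 1 of 2 controls was Present (limma adjusted p = 0.046, SE 1.54), was lost in 13 of 26 alternatives (0.00292 to 0.354). The counts were 5 without WT control 1 and 4 without WT control 2 or WT NaCl 2 in WT, 4 without OE NaCl 2 in OE, and 3 without RD control 1 or RD NaCl 2 in RD.

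**Figure D4:**
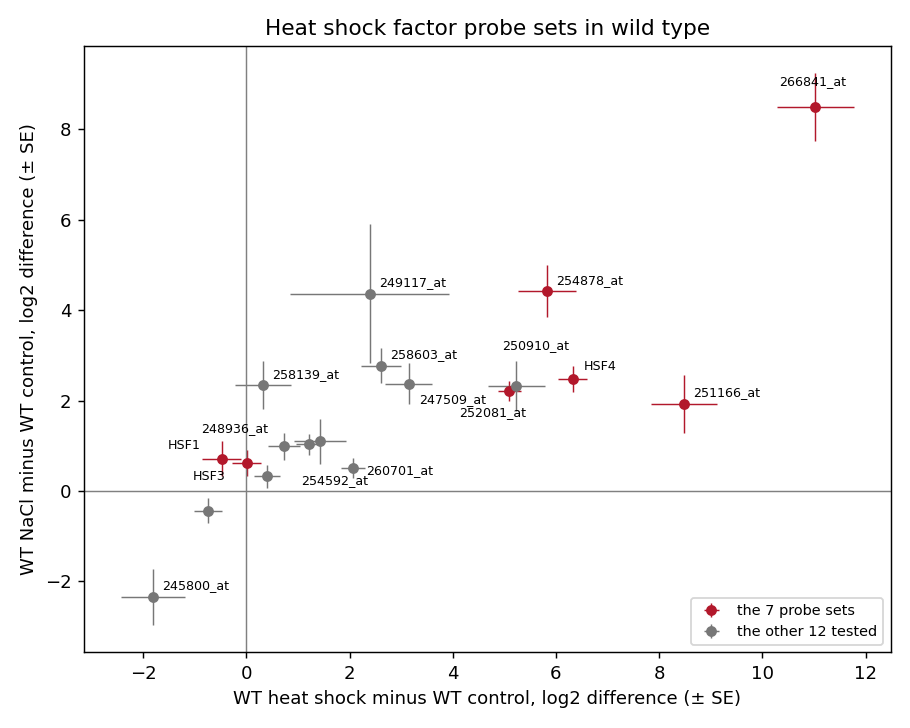
Log2 difference of WT heat shock minus WT control (x axis) and WT NaCl minus WT control (y axis), each with its SE, for the 7 probe sets and the other 12 tested heat shock factor probe sets. Both axes use the same WT control arrays. Of the 12, labels mark those past the threshold in either contrast. Probe set 245800_at and 1 unlabelled probe set lie below 0 on both axes, and 5 of the 7 lie above 1 on both.

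Between lines, 1 of the 12 passed in RD minus OE after heat shock and 1 in RD minus OE after NaCl, both lower in RD. Of all tested probe sets, 0.846% and 0.76% passed in these contrasts. None of the 12 passed in the other contrasts between lines. Probe set 260701_at, described as similar to the tomato factor HSF8, had 466.3 and 457.7 units on the RD heat arrays and 1547 and 1365 on the OE heat arrays, a difference of -1.65 ± 0.23 (limma adjusted p = 0.00291). The WT heat arrays, at 1093 and 953.1, lay between them. Probe set 247509_at had 398.6 and 524.2 units on the RD NaCl arrays and 1906 and 4089 on the OE NaCl arrays, a difference of -2.61 ± 0.45 (limma adjusted p = 0.0137). Its WT NaCl arrays had 1335 and 3452.5, and RD minus WT was at -2.23 (limma adjusted p = 0.0517). The first call was lost without OE heat 1 or RD heat 1, and the second without RD NaCl 1 or OE NaCl 2 (limma adjusted p up to 0.0541 and 0.151). OE heat 1 is the array with the actin ratio of 8.29 and a GAPDH ratio of 1.134, and their part in the first call was not tested.

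Downstream of the factors, 15 of 20 listed target genes were matched to a probe set and tested, most of them chaperones. The list holds known targets and was chosen with earlier results of these data known, so its counts are a description. All 15 rose after heat shock in each line, against 5.41% of all tested in RD, 6.44% in OE and 6.7% in WT. The median log2 difference of the 15 was 8.64 in RD, 6.84 in OE and 8.48 in WT. That of all tested probe sets was -0.27 in RD and -0.29 in OE and in WT. For OE minus WT the median of the 15 was -0.24 after heat shock and 0.98 in controls. By limma's adjusted p, 0 of 15 passed in either, and 0 for the heat shock response in OE minus WT. The largest heat shock differences in WT were AT1G52560 (10.56), a gene of the small heat shock protein family, HSP21 (10.42), the chloroplast small heat shock protein, and HSP23.6-MITO, the mitochondrial one, which was at least 1023-fold higher since no WT control was Present. After NaCl 13 of 15 rose in RD, 13 in OE and 14 in WT, against 12%, 11.5% and 12% of all tested. The medians of the 15 were 3.39, 4.45 and 5.01. HSP21 was among those that did not pass, at 0.60 in RD, 0.31 in OE and 3.50 in WT (limma adjusted p = 0.751, 0.884 and 0.053).

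Partners and upstream regulators were also listed with earlier results known. The shares of all tested that rose are those given for the targets. Of 6 listed partners, which bind the factors or hold them inactive, 4 were tested, and all 4 rose after heat shock in each line. These were AT5G48570, also called ROF2 (7.80 in RD, 6.59 in OE, 7.16 in WT), and ROF1 (5.12, 5.24 and 5.13), immunophilins that bind HSP90. The others were HSP81-2, a cytosolic HSP90 (4.76, 4.40 and 4.65), and HSC70-1, a cytosolic HSP70 (1.09, 1.60 and 1.57). After NaCl 3 of 4 rose in each line, and HSC70-1 was at 0.07, 0.43 and 0.53 in RD, OE and WT. Of 5 upstream regulators, 3 were tested, and all 3 rose under both stresses in each line. DREB2A, which activates a heat shock factor gene in the heat shock response, rose by 5.88 after heat shock and 6.46 after NaCl in RD, 4.78 and 6.19 in OE, and 6.08 and 6.42 in WT. DREB2B, its close relative, was at least 7.75-fold higher after heat shock in RD and at least 7.70-fold in OE, whose controls were not Present, and rose by 3.43 on the log2 scale in WT. BZIP28, a membrane-bound factor of the unfolded protein response, rose after heat shock by 2.42, 2.61 and 2.43 in RD, OE and WT.

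Between lines, 5 targets and 1 partner of these 22 genes passed in RD minus WT after NaCl, 6 targets and 1 partner in RD minus OE after NaCl, and 4 targets and 1 partner in RD minus OE in controls, all lower in RD. The shares of all tested probe sets for these contrasts are the 0.437%, 0.76% and 0.219% given above. In no other contrast between lines did any of the 22 pass. The partner was AT5G48570 each time, at -1.92 (limma adjusted p = 0.00364), -1.96 (0.00142) and -1.33 (0.0478). The targets included AT1G52560, at -4.84 in RD minus WT after NaCl, -6.48 in RD minus OE after NaCl and at least 10.5-fold lower in RD in the last of these contrasts, where neither RD control was Present. On the RD NaCl arrays AT1G52560 had 49.9 and 3.8 units, the second not Present. Without that array the differences were -2.99 against WT (limma adjusted p = 0.147) and -4.62 against OE (limma adjusted p = 0.0114). The call in controls was lost with a floor of 16 (-2.49, limma adjusted p = 0.0765) and in 10 of 26 alternatives in all. The targets further included HSP23.6-MITO, at -3.73 in RD minus WT and -4.01 in RD minus OE after NaCl, which became -2.49 (limma adjusted p = 0.112) and -2.77 (limma adjusted p = 0.0457) without RD NaCl 2. HSP23.6-MITO is also among the 4 targets in controls, at -3.58, although no RD or OE control array called it Present. That call was lost with a floor of 16 (-2.355, limma adjusted p = 0.204) and in 15 of 26 alternatives in all. The NaCl calls of AT5G48570 were kept in all 26 alternatives, and its call in controls was lost in 17. Without WT NaCl 2 or RD NaCl 2 the count of 6 for RD minus WT became 1, and without RD control 1 or OE control 2 the count of 5 for the controls became 0. That last count was also 1 to 3 without any 1 of OE control 1 or the WT heat, OE heat, RD heat and OE NaCl arrays.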

How the data were processed

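Whole-seedling RNA (10 µg) was hybridised, and the deposited intensity of each probe set is, per the labels, a MAS5 signal. The sources used here do not give the software version. With each signal the authors deposited a detection p-value and a call, and the highest detection p of a Present call was 0.0474. The largest difference between the series' value table and the array files was 0. Every array's mean after trimming 2% at each end was 500 to 500.1. No genome build is named, so no coordinates are given.

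Signals were floored at 0.1 and taken to log2. Of 22746 non-control probe sets, 17379 were tested, those for which some group had a Present call on both its arrays. A linear model with moderated variances and an intensity trend (limma 3.58.1, R 4.3.3) was fitted over all 18 arrays with 1 mean per group, giving 9 residual and 4.76 prior degrees of freedom, and was tested on simulated data. Within each contrast, limma's p-values received Benjamini-Hochberg adjustment, with a threshold of 0.05. The number of arrays limits precision. Folds against a group with no Present call are given as lower bounds. They use each array's own signal or, where higher, its smallest Present signal, and hold only for that rule on dim signals. Tables were read with Python 3.11.15 and pandas 2.3.3, and figures drawn with matplotlib 3.10.9.

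The annotation table paired 13513 probe sets with 1 symbol and 503 with several, leaving 8730 unnamed, and 17 probe sets were named by their array description. RefSeq's table for TAIR10.1 gave loci and synonyms. Targets, partners and upstream regulators are lists by locus. Named are all 7 members, the other heat shock factor probe sets past the threshold in WT, the 3 genes of each list with the largest heat shock difference in WT, and all partners. For likeness the 3 probe sets with the highest r are named. The members and lists were chosen with earlier results of these data known. Lines and treatments were grouped by the labels. Alternatives were quantile normalization, a floor of 16, no filter, the array series as a block or the first series only, the replicate number as a block, no variance trend, and each array left out. Applying them to the target, partner and regulator genes, and to the other factors between lines, was decided after seeing the data, as was a replicate block within each treatment.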

Additional observations from a re-analysis of the deposited data

How the results depend on the processing

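No result changed direction past the threshold under any of the 8 other settings or the 18 fits that left out 1 array. For RD minus OE in controls the count of members past the threshold was 1, and became 0 without the variance trend and 0 to 1 with an array left out. For RD minus OE after NaCl it was 1, and became 2 with a floor of 16, 0 without the trend and 0 to 1 with an array left out. For RD minus OE in controls the count of target, partner and regulator genes was 5, and became 3 with a floor of 16, 1 without the trend, 10 with a replicate block within each treatment and 0 to 5 with an array left out. For RD minus OE after NaCl that count was 7, and 12 with that block. For RD minus WT after NaCl that count was 6, and 1 to 7 with an array left out. The count of other heat shock factor probe sets in NaCl against control was 6 in RD (3 to 6 with an array left out), 7 in OE (4 to 8) and 8 in WT (4 to 8). In WT heat shock against control it was 5, and 9 with that block. The cause was not tested. The other counts stayed within 1.5 times. Of 1638 values for members between treatments, 1576 moved by less than 1 residual SD. Of 2730 for members between lines, 2580 kept direction and side of the threshold, 24 lost a call, 1 gained one and 125, none a call, changed sign.

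Replicate numbers are shared by all groups, and the labels do not say what a number marks. Deviations of same-numbered arrays correlated at -0.0762 to 0.627 over 36 pairs of groups, and 11 exceeded 0.1. Between lines under 1 treatment the 3 correlations were -0.0549 to 0.122 for heat shock, 0.291 to 0.627 for NaCl and 0.3 to 0.4 for control. With the replicate number as a block, 1 member passed for RD minus OE in controls and 1 after NaCl, 0 in the other contrasts between lines, and 9 target, partner and regulator genes in RD minus OE after NaCl instead of 7. This block moved no count by over 1.5 times and ended no call among the members. A block of its own within each treatment was chosen after seeing the data. With it the members past the threshold were again 1 for RD minus OE in controls and 1 after NaCl, and 0 in the other contrasts between lines.

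Signals were near background for HSF1, for 254878_at in controls and for 251166_at in controls and after NaCl. With these and 2 arrays per group, differences between lines smaller than the printed intervals cannot be told from 0. Signals of 266841_at in controls were not measurable, and RD minus WT there was -2.26 as deposited and -0.38 with a floor of 16.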
